A study of Mus musculus with 8 samples.

Results

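The Indian hedgehog and PTHrP (parathyroid hormone-related protein) loop was followed through 10 genes fixed by name: Ihh, Pthlh, Pth1r, Ptch1, Smo, Gli1, Gli2, Gli3, Hhip and Disp1. A probe set, the group of array probes that reports 1 transcript, was taken when the platform annotation mapped it to exactly 1 symbol and that symbol was among the 10. This gave 20 probe sets of 9 genes, of 45101 probe sets on the array. The annotation used here maps no single-symbol probe set to Pthlh, so that gene was not analysed here. Of the 20 probe sets, 18 passed the filter on signal and were tested, at least 1 for each of the 9 genes.

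RNA came from rib chondrocytes, the cells that make cartilage, of FVB mouse embryos at stage E18.5, and each sample was hybridised to 1 Affymetrix array. The groups were Hoxc8 transgenic embryos (n = 4) and wild type control embryos (n = 4), 1 of each genotype per litter. Litters are called 1 to 4 after the replicate numbers. The labels do not name the promoter that drives the Hoxc8 transgene, the transgenic line, or the number and sex of embryos in a sample. Rib cages were digested with collagenase and trypsin, so that cells of tissues next to the cartilage can be present.

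In growth cartilage, cells that leave proliferation and are about to become hypertrophic secrete Indian hedgehog. Hedgehog binds the receptor Patched 1 (Ptch1) and thereby frees Smoothened (Smo) to act on the Gli transcription factors. In cells near the ends of the cartilage hedgehog maintains the secretion of PTHrP, the product of Pthlh. PTHrP acts on its receptor Pth1r, keeps chondrocytes dividing and holds back their hypertrophy, which closes the loop.

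RefSeq promoter windows on build GRCm38.p6, reaching from 250 bases before to 50 bases after a gene's start, were found for 9 of the 10 genes (12 windows; Gli1 had none in the table). The windows of Ihh (chr1:74951623-74951922, minus strand), Ptch1 (chr13:63565686-63565985, minus strand) and Gli2 (chr1:119053570-119053869, minus strand) are shown. Each of these genes has a single window, and its brightest probe set passed the litter test of the main fit described below. Capitals mark GC boxes, GGGCGG on either strand, and each sequence runs 5′ to 3′ along the gene.
Ihh: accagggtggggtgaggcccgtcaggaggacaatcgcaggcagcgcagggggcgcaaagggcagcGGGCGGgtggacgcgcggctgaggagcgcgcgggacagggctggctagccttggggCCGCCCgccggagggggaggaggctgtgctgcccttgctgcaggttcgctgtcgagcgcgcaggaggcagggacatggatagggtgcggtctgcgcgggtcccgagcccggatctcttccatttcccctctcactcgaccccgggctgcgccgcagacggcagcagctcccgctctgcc
Ptch1: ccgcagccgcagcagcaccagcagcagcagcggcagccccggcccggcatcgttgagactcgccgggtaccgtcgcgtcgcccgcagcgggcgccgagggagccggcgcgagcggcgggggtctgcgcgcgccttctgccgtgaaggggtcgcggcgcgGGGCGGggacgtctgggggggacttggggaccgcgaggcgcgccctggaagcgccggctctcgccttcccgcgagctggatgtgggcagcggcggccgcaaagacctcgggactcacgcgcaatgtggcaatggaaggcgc
Gli2: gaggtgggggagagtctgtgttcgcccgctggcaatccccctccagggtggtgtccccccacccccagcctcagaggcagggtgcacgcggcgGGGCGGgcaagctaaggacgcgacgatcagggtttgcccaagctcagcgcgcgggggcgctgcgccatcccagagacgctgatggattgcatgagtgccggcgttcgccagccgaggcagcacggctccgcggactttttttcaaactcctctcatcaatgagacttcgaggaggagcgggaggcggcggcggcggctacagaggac
The GC box was present in 8 of the 12 windows and in 35.7% of the 32851 windows of all genes. The consensus site of Gli proteins, GACCACCCA on either strand, was in 0 of the 12 windows and in 0.253% of all windows. The cAMP response element TGACGTCA, a motif of the pathway that PTHrP uses inside the cell, was in 1 of the 12 windows, that of Hhip, and in 1.79% of all windows. The printed sequences hold neither of the last 2 motifs. A match or its absence describes the letters of these windows only.

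The deposited values are MAS5 signals on a linear scale, scaled by the authors so that each array has the same trimmed mean, and precision is limited by having 4 arrays a genotype. Signals were compared as log2(signal + 22.2) with limma, the litter being a term of the model, and p-values were adjusted over all 22519 probe sets tested. Folds come from differences of these log2 values, so they can differ from ratios of the signals printed. A probe set was tested when its mean signal over the 8 arrays was at least 110.03. The median signal of an array was between 107 and 121. Hoxc8 averaged 3885 ± 369 in transgenic samples and 3519 ± 501 in control samples (SD, n = 4 each), a difference of 0.15 log2 that was not called (limma adjusted p = 0.9998). By litter, Hoxc8 had 4096, 3400, 3810 and 4235 in transgenic samples of litters 1 to 4, against 4112, 3066, 3755 and 3143 in control samples, so that in litter 1 the transgenic sample was not the higher one. The sources do not say whether its probe set covers the sequence that the transgene carries. The 12 chondrocyte marker genes all passed the filter, and Col2a1, the main collagen of cartilage, averaged 44130 over the 8 arrays.

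The comparison of genotypes asks whether transcript levels of the loop differ between Hoxc8 transgenic and control chondrocytes. None of the 18 probe sets of its genes passed an adjusted p of 0.05 (limma, adjusted p = 0.9998 each), and 0 had an unadjusted p under 0.05. Over all probe sets 0% passed, and 3.34% (752 of 22519) had an unadjusted p under 0.05. The transgenic and control samples overlapped for each of the 18, and over all probe sets the genotypes did not overlap for 1.02%. All 4 litters had the same sign for 2 of the 18, 1 of Ihh and 1 of Smo, against 10.6% of all probe sets. The median difference of the 9 genes was -0.02 log2, with 3 positive and 6 negative, beside a median of 0.00 and 50.7% positive over all 10989 genes tested.

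**Figure D1:**
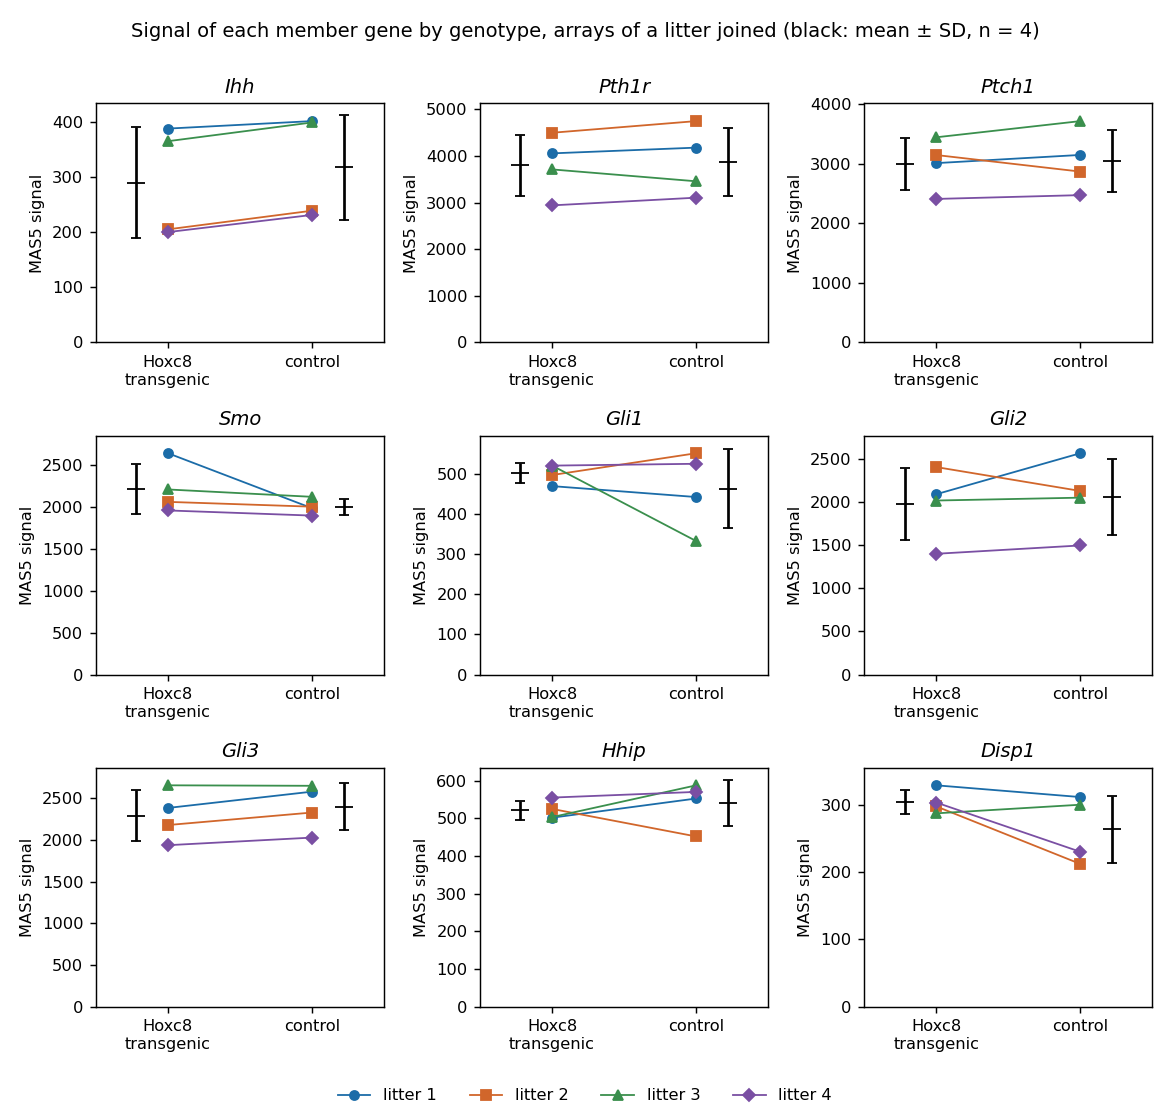
MAS5 signal (linear y axis from 0) of the probe set with the highest mean signal of each gene, in Hoxc8 transgenic samples at left and control samples at right. Coloured points are single arrays, lines join the 2 arrays of a litter, and black bars are the mean ± SD (n = 4); the genotypes overlap in every panel, and the lines of Ihh lie in separate bands of litters.

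Ihh, the ligand of the loop, had signals of 388, 205, 365 and 200 in transgenic samples of litters 1, 2, 3 and 4, against 402, 239, 399 and 232 in control samples. Within each litter the transgenic sample was the lower one, while the litters lay further apart than the genotypes. Means were 289.9 ± 101 in transgenic and 318 ± 95.5 in control samples (SD, n = 4 each). Paired by litter, the difference came to -0.14 log2 (SE 0.13), and its 95% interval ran from 0.743-fold to 1.11-fold.

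Disp1 encodes Dispatched, the membrane protein that releases lipid-bearing hedgehog from the cell that makes it. Its signals were 329, 298, 287 and 304 in transgenic samples and 312, 212, 300.3 and 230.2 in control samples. The transgenic samples lay between 287 and 329, a range that 2 of the control samples reached. The difference came to 0.21 log2 (SE 0.15), with an interval from 0.926-fold to 1.44-fold, and leaving out 1 litter moved it to between 0.13 log2 (without litter 2) and 0.30 log2 (without litter 3). A dimmer probe set of Disp1, at a mean of 187 in transgenic and 142 in control samples, stood at 0.35 log2 (SE 0.20), higher in the transgenic sample of litters 2, 3 and 4 and lower in litter 1.

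Pth1r, the receptor of PTHrP, is abundant in prehypertrophic chondrocytes. Its signals were 4057, 4499, 3713 and 2941 in transgenic samples, against 4180, 4749, 3458 and 3107 in control samples. Both genotypes followed the same order of litters, with litter 2 highest and litter 4 lowest. The difference of -0.02 log2 (SE 0.07) had the narrowest interval of the 9 genes, from 0.886-fold to 1.09-fold.

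Ptch1 is the hedgehog receptor and also a target gene that hedgehog raises. Its brightest probe set gave 3008, 3144, 3441 and 2408 in transgenic samples and 3146, 2866, 3713 and 2471 in control samples. The difference came to -0.02 log2 (SE 0.07), with an interval from 0.883-fold to 1.10-fold. A second probe set, with means of 222 ± 46.6 in transgenic and 193 ± 39.8 in control samples (SD, n = 4 each), stood at 0.18 log2 (SE 0.18). Another, with means of 99.7 and 105 in transgenic and control samples, lay below the filter and was not tested.

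Smo encodes the membrane protein that Ptch1 holds in check. Its brightest probe set gave 2646, 2065, 2213 and 1962 in transgenic samples and 1989, 2007, 2125 and 1901 in control samples. Each transgenic sample was above its litter mate, by 0.41 log2 in litter 1 and by 0.04 to 0.06 log2 in the other litters. The difference came to 0.14 log2 (SE 0.09), with an interval from 0.967-fold to 1.25-fold. The second probe set of Smo stood at 0.01 log2 (SE 0.10), with 2 litters of each sign, and the dimmest, at mean signals of 8.63 in transgenic and 9.38 in control samples, was far below the filter.

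Gli1 is an activator whose own transcription is a common readout of hedgehog activity. It gave 469.9, 498, 521 and 521 in transgenic samples and 443, 552, 333 and 526 in control samples. The control sample of litter 3 was the lowest array, and the other 7 arrays lay between 443 and 552. The difference came to 0.14 log2 (SE 0.14), with an interval from 0.894-fold to 1.35-fold, and it turned to -0.02 log2 without litter 3.

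Hhip encodes a membrane protein that binds hedgehog ligands and limits their reach, and it too is a hedgehog target. The brightest of its 4 probe sets gave 501, 525, 503 and 555 in transgenic samples and 552, 452, 587 and 569.8 in control samples. The difference came to -0.04 log2 (SE 0.11), with an interval from 0.816-fold to 1.15-fold, and it was 0.01 log2 without litter 3. The other 3 probe sets stood between -0.19 and 0.05 log2.

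Gli2 is the main activator among the Gli factors, and Gli3 acts mostly as a repressor when hedgehog is absent. The brightest probe set of Gli2 gave 2089, 2403, 2016 and 1399 in transgenic samples and 2564, 2127, 2049 and 1496 in control samples. Its difference came to -0.06 log2 (SE 0.09), with an interval from 0.841-fold to 1.10-fold, and the second probe set stood at -0.00 log2 (SE 0.09). The brightest probe set of Gli3 gave 2383, 2178, 2655 and 1937 in transgenic samples and 2579, 2328, 2649 and 2028 in control samples. Its difference came to -0.07 log2 (SE 0.07), with an interval from 0.856-fold to 1.06-fold. Of the other probe sets of Gli3, 1 stood at 0.05 log2 and the dimmest at -0.36 log2 (SE 0.19), with means of 208 ± 86.1 in transgenic and 261 ± 40.15 in control samples (SD, n = 4 each). The 3 probe sets of Gli3 thus differed in sign.

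**Figure D2:**
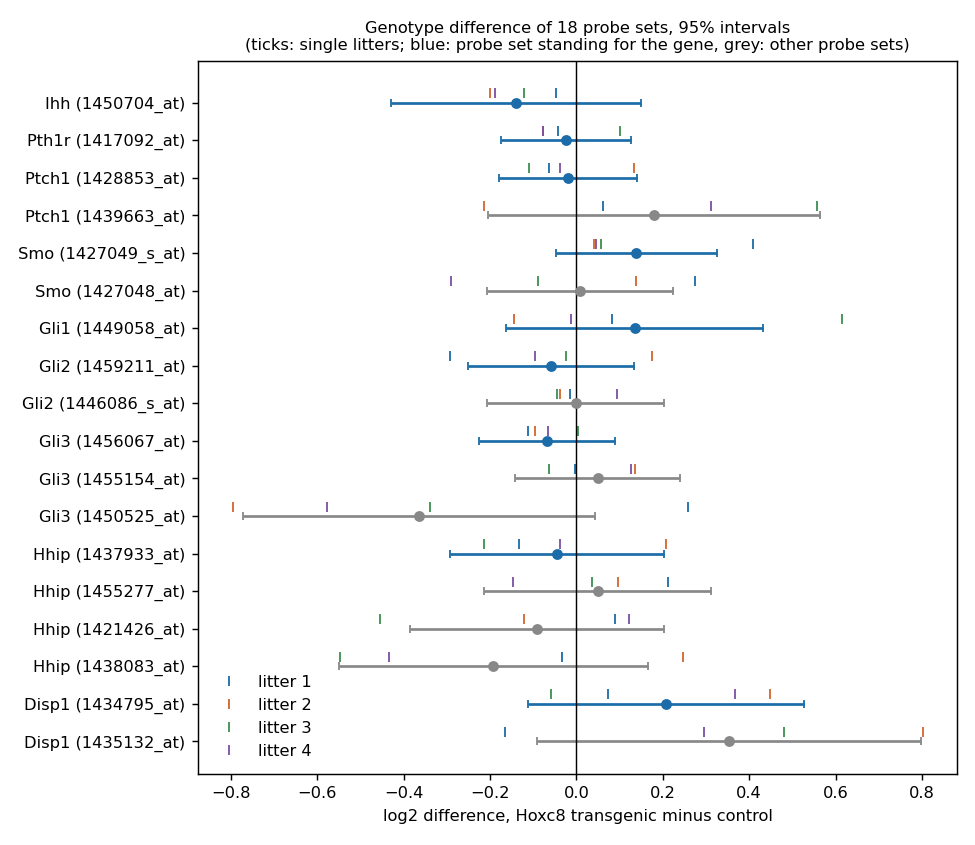
Log2 difference of Hoxc8 transgenic minus control (x axis) for the 18 probe sets tested, as points with 95% intervals of the limma fit; coloured ticks are the differences within single litters. Blue marks the probe set with the highest mean signal of each gene and grey the others; every interval includes 0, and the widest are those of dim probe sets of Disp1 and Gli3.

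Between litters, unlike between genotypes, genes of the loop were called. In the same fit, a moderated F-test of the litter terms, with genotype in the model, passed an adjusted p of 0.05 for 4 of the 9 genes: Ihh, Pth1r, Ptch1 and Gli2. Over all genes tested 9.91% passed (1089 of 10989), and over all probe sets 9% (2027 of 22519), beside 5 of the 18 probe sets here. In bulk RNA, fewer cells of a type and less RNA per cell cannot be told apart, and a litter cannot be told apart from anything that was done to its samples together. The F-test draws its error from the 2 samples of each litter after the genotype term, and it covers all litters at once. Its p therefore does not compare the 2 litters named beside a fold, which are those with the highest and lowest mean. None of these calls was made when the intensity trend was left out of the moderation, where 0 of the 22519 probe sets passed in limma (smallest adjusted p 0.0865, 4915 at an unadjusted p under 0.05).

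Ihh averaged 395 in litter 1, 222 in litter 2, 382 in litter 3 and 216 in litter 4, over the 2 samples of a litter. The 4 samples of litters 1 and 3 lay between 365 and 402, and the 4 of litters 2 and 4 between 200 and 239. These sets of litters were chosen after the values were seen, so the gap between them is not a test. Litter 1, the highest, stood 1.76-fold above litter 4, the lowest (limma F-test over all litters, adjusted p = 0.0201). The call was lost when litter 2 was left out (adjusted p = 0.0585), when litter 3 was (adjusted p = 0.0667) and when no filter was set (adjusted p = 0.0566), and the stricter filter (mean signal at least the 70th percentile) leaves Ihh untested.

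Pth1r had another order of litters than Ihh. It averaged 4119, 4624, 3585 and 3024 in litters 1, 2, 3 and 4, and both samples of litter 2 were the highest 2 of the 8 and both of litter 4 the lowest 2. Litter 2 stood 1.53-fold above litter 4 (limma F-test over all litters, adjusted p = 0.0112). The call was lost when litter 2 was left out (adjusted p = 0.0881) or litter 4 (adjusted p = 0.0921). In litter 2, Pth1r was at its highest while Ihh was near its lowest.

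Ptch1 averaged 3077, 3005, 3577 and 2439 in litters 1, 2, 3 and 4. Litter 3 held the highest 2 samples and litter 4 the lowest 2, with litter 3 at 1.46-fold over litter 4 (limma F-test over all litters, adjusted p = 0.0297). The call was lost when litter 3 was left out (adjusted p = 0.163), when litter 4 was (adjusted p = 0.262) and when no filter was set (adjusted p = 0.0561). The second probe set of Ptch1 did not follow: litter 4 was its highest at 250.1 and litter 1 its lowest at 169 (limma adjusted p = 0.452). With the mean of the Ptch1 probe sets tested in place of the brightest, the call was also lost (adjusted p = 0.587).

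Gli2 averaged 2326, 2265, 2033 and 1447 in litters 1, 2, 3 and 4, and litter 4 held the lowest 2 samples. Litter 1 stood 1.59-fold above litter 4 (limma F-test over all litters, adjusted p = 0.0163). The second probe set had the same order of litters and 1.56-fold between litters 1 and 4 (same F-test in limma, adjusted p = 0.0240). Without litter 4 the call was lost (adjusted p = 0.579).

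**Figure D3:**
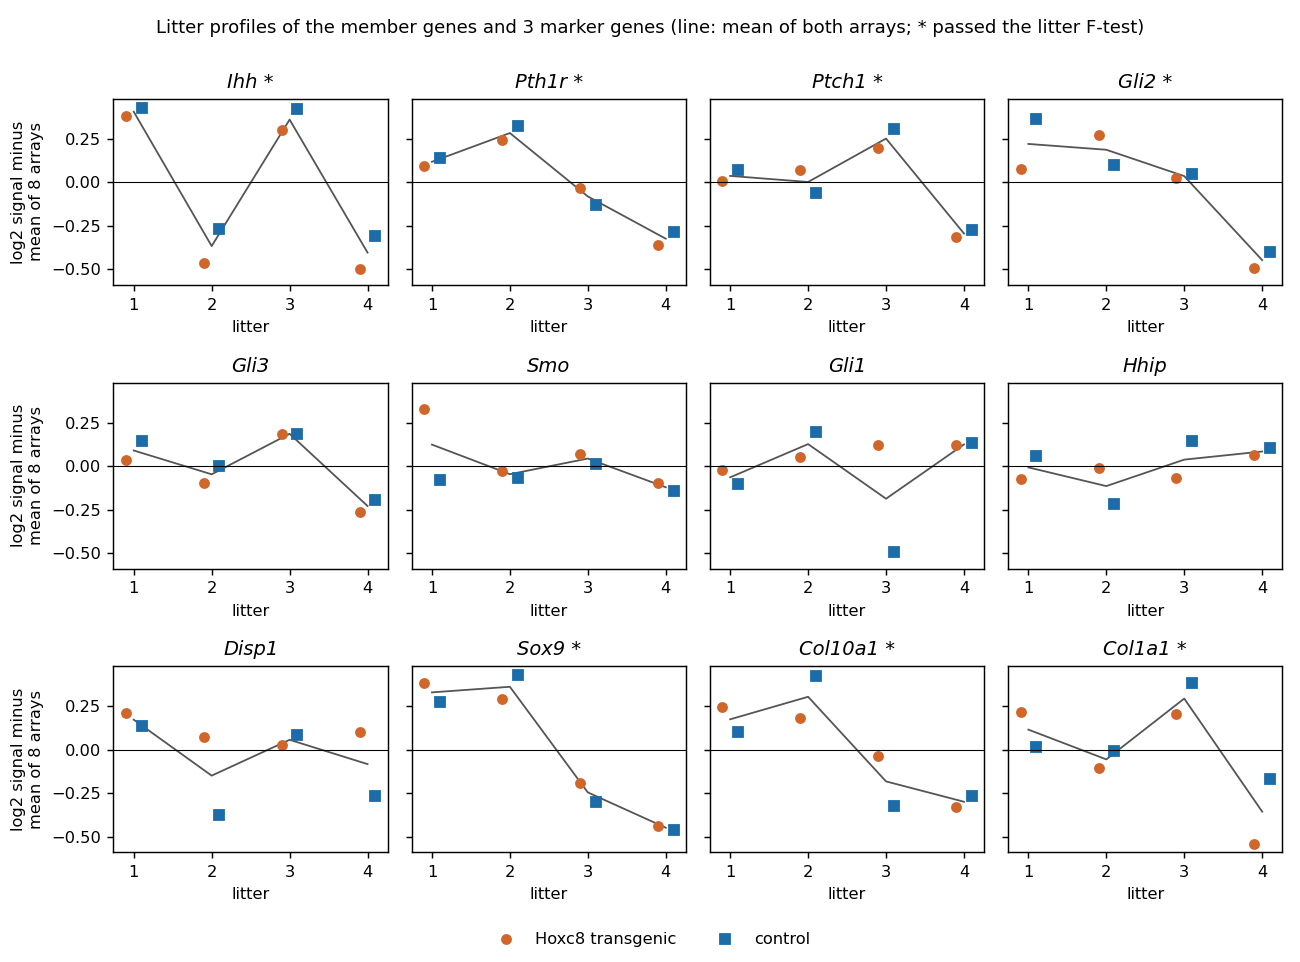
Log2 signal minus the mean of the 8 arrays (y axis) by litter (x axis) for the 9 genes of the loop and, from the lists of marker genes, Sox9, Col10a1 and Col1a1; circles are Hoxc8 transgenic and squares control samples, and the line joins the litter means. An asterisk marks an adjusted p under 0.05 in the litter F-test. The marker genes shown are ones that passed it, and most genes of their lists did not. Ihh is high in litters 1 and 3, and Pth1r, Ptch1 and Gli2 are lowest in litter 4.

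The other 5 genes did not pass the litter test. Gli3 was nearest, with 1.33-fold between litters 3 and 4 (limma F-test over all litters, adjusted p = 0.0694). Its 2 brightest probe sets both had litter 3 highest and litter 4 lowest. The hedgehog readouts Gli1 and Hhip had adjusted p of 0.511 and 0.766 in the same limma F-test, and Smo and Disp1 0.435 and 0.606. Gli1 averaged 456, 525, 427 and 523 in litters 1 to 4, so that the 2 litters with high Ihh had the lower Gli1 means. The low mean of litter 3 came from its control sample at 333, while its transgenic sample was at 521. The order of these means therefore did not hold in both genotypes. Hhip averaged 527, 488, 545 and 562 in litters 1 to 4 on its brightest probe set, with litter 4 highest. Its other probe sets had their lowest litter mean in litter 4, at 371, 290 and 196, and did not pass the test either. A p that misses the threshold does not show that these genes were equal between litters.

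Litter 4 was low for much of the loop. Both of its samples were the lowest 2 of the 8 for 5 of the 9 genes (Pth1r, Ptch1, Smo, Gli2 and Gli3) and for 9 of the 18 probe sets. Over all genes tested this held for 11.4%, and over all probe sets for 11.1%. No probe set of the loop had both samples of litter 4 as the highest 2, beside 10.9% of all probe sets. The median distance between the highest and the lowest litter mean was 1.33-fold over the 9 genes and 1.29-fold over all genes tested. These counts were chosen after the values were seen.

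Markers of the cell types in a rib digest also moved with the litters, and their part in these results was not tested. Of the 12 chondrocyte markers, 4 passed the litter test: Sox9, the master transcription factor of cartilage, Acan, the gene of aggrecan, Col9a2 and Col11a2. Each of the 4 was highest in litter 2 and lowest in litter 4, as was Pth1r. For Col9a2 the low mean of litter 4 came from its control sample at 9164, with the transgenic sample at 15221. Of the markers that did not pass, Matn1 had the same highest and lowest litter. Others did not: Col2a1 and Col9a1 were lowest in litter 3, and Matn3 was highest in litter 3 and lowest in litter 2. Sox9 averaged 5270, 5392, 3527 and 3057 in litters 1 to 4 (limma adjusted p = 0.00101). The summed signal of the 12 markers had litter means of 340483, 385533, 318100.3 and 310010.3. Of 5 markers of hypertrophic chondrocytes, only Col10a1, the collagen of hypertrophic cartilage, passed, with litter means of 8106, 8893, 6344 and 5819 (limma adjusted p = 0.0194). The list summed to 11688, 13166, 11245 and 9738, and most of each sum is Col10a1 itself.

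Of 5 osteoblast markers only Col1a1, the main collagen of bone, passed. It averaged 22063, 19550.5, 24965 and 15984 in litters 1 to 4 (limma adjusted p = 0.0201), with litter 3 highest and litter 4 lowest, as for Ptch1, and the list summed to 22772, 20342, 25907 and 16684. Most of that sum is Col1a1 itself, and the other 4 summed to 709, 792, 942 and 699.8. Of 7 fibroblast markers Thbs2 and Col14a1 passed, both highest in litter 3, and the list summed to 115221, 106714, 124114 and 110867 in litters 1 to 4. Of 7 muscle markers 4 passed, Mylpf, Acta1, Ckm and Tnnt3, and the list summed to 34365, 25081, 25683 and 36374. Endothelial markers (0 of 4 tested) summed to 1004, 980.3, 1086 and 676, macrophage markers (0 of 3 tested) to 1000.3, 837, 1072 and 795. Erythroid markers (1 of 2 tested, Alas2) summed to 4270.3, 3729, 2455 and 4287. No marker with a probe set had a mean signal of 0, and between genotypes 0 markers were called (limma). Spp1, Bglap, Bglap2 and Hbb-bt were not analysed here, and of 6 erythroid markers only 4 had a single-symbol probe set. The sums take in every marker with such a probe set, also those below the filter: 5 endothelial, 5 macrophage and 4 erythroid genes.

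The sums of these lists overlapped between genotypes. The chondrocyte markers summed to between 315202 and 366121 in transgenic samples and between 304819 and 404945 in control samples. The muscle markers summed to between 24610 and 35525 in transgenic samples and between 25192 and 37222 in control samples. Xist, a transcript of female cells, lay between 5726 and 14182 in transgenic and between 6091 and 13940 in control samples, and its litter test gave no call. By litter, Xist had 6230, 14182, 5726 and 12657 in transgenic samples of litters 1 to 4, against 10062, 6091, 13940 and 11370 in control samples. Within litters 2 and 3 the samples thus differed in opposite directions. The part of sex in the genotype differences was not tested.

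The 3 genes whose profile over the 8 arrays was nearest to that of Ihh, by the root mean square difference of centred log2 signals among 642 genes that vary at least as much, were Mrc1 (0.20 log2), Tgfb1 (0.22) and Adgra3 (0.25). Mrc1 encodes the mannose receptor of macrophages and Tgfb1 a growth factor of the TGF-beta family. Mrc1 gave 249, 111, 322 and 133 in transgenic samples and 222, 148, 319.7 and 164 in control samples, with litters 1 and 3 above litters 2 and 4 in both genotypes. As Mrc1 was picked for its likeness to Ihh, its high litters 1 and 3 follow from the choice. The 8 arrays share litters, and the likeness is a description of these profiles.

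The wider pathway was read through 6 lists with 82 further genes, of which 67 were tested. Between genotypes 0 passed in either direction (limma), with 29 positive and 38 negative differences. The median was -0.09 log2 over 4 genes of ligands and their release, 0.01 over 4 co-receptors, -0.00 over 18 genes of signal transduction, -0.01 over 13 of the primary cilium, the organelle where Smo and the Gli proteins work, -0.08 over 7 hedgehog targets and -0.02 over 21 genes of PTHrP signalling, beside 0.00 over all genes. Gsk3b, a kinase that acts on Gli proteins, averaged 1199 ± 164 in transgenic and 1378 ± 187 in control samples (SD, n = 4 each), a difference of -0.20 log2 (SE 0.08). It was lower in the transgenic sample of every litter and was not called (limma unadjusted p = 0.0362, adjusted p = 0.9998).

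Of the 67 genes, 9 (13.4%) had the same sign in all 4 litters, beside 10.7% of all genes tested. Besides Gsk3b they included Scube3, a secreted protein of the family that aids hedgehog release, at -0.17 log2 (SE 0.09), and Evc2, a cilium protein that works with Smo, at 0.08 (SE 0.10). The others were the intraflagellar transport genes Ift80, Ift88 and Ift172, at -0.17 (SE 0.10), -0.17 (SE 0.11) and 0.15 (SE 0.10), Ccnd2, a cyclin gene, at -0.08 (SE 0.06), Runx3, a factor of hypertrophy, at -0.27 (SE 0.16), and Hdac4, a brake on hypertrophy that PTHrP signalling controls, at -0.15 (SE 0.13).

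Between litters 2 of the 67 passed, beside 9.91% of all genes tested. Foxc1, a forkhead factor on the list of hedgehog targets, gave 2476, 2722, 2169 and 1502 in transgenic samples and 2347, 3250, 2129 and 1452 in control samples of litters 1 to 4. Litter 2 stood 1.999-fold above litter 4 (limma F-test over all litters, adjusted p = 0.00201), with the order of highest and lowest litter seen for Pth1r. Scube3 gave 1027, 648, 1187 and 794 in transgenic samples and 1067, 767, 1359 and 922 in control samples. Its litters 1 and 3 were above litters 2 and 4 in both genotypes, as for Ihh, a split chosen after the Ihh values were seen. Litter 3 of Scube3 stood at 1.78-fold over litter 2 (limma F-test over all litters, adjusted p = 0.00845).

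Of the other genes with the smallest litter p in each list, none passed. Scube2, with litter 3 at 1.86-fold over litter 4, had an adjusted p of 0.138 in the limma F-test. The co-receptor genes Gas1 and Boc had 0.0671 and 0.166, Prkaca, a catalytic subunit of protein kinase A, 0.0845 and Gsk3b 0.105, the cilium genes Kifap3 and Ift80 0.0967 and 0.105, Foxc2 0.0595, and Zfp521 and Sik3, which act downstream of PTHrP, 0.0688 and 0.0693. Of these 10 genes, 7 had their lowest mean in litter 4, and Prkaca, Kifap3 and Ift80 in litter 2. Litter 4 had the lowest mean for 36 of the 67 pathway genes (53.7%) and for 29% of all genes tested, a count chosen after the values were seen.

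**Figure D4:**
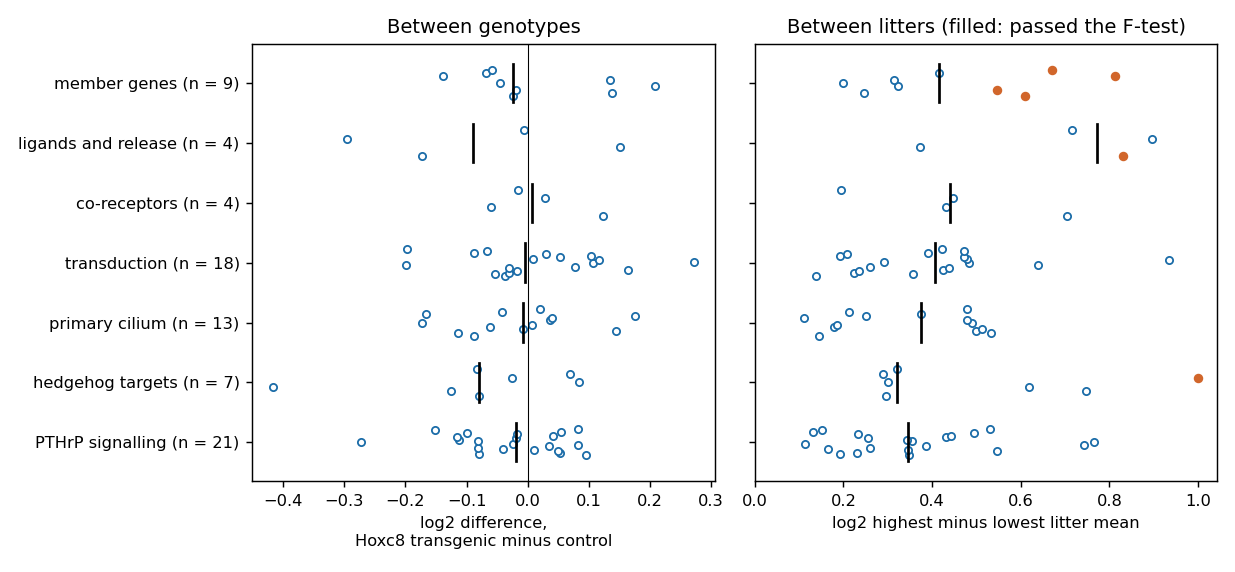
Genes of the loop and of 6 further pathway lists (rows, n tested in each). At left the log2 difference of Hoxc8 transgenic minus control and at right the log2 distance between the highest and lowest litter mean; points are genes, bars are medians and filled points passed the litter F-test, 4 of the 9 genes of the loop, Scube3 and Foxc1.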

How the data were processed

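Each of the 8 samples was hybridised to 1 Affymetrix array. The authors deposited intensity values, MAS5 signals that are not log transformed; the submitters' processing notes name MAS5, with no version. On each array the mean after trimming 2% at each end was 500.003, so the arrays had been scaled before deposit and no further normalization was applied. Control probe sets (64) were left out. Of the rest, 34945 had 1 gene symbol, 932 several and 9160 none.

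The offset of 22.2 that was added before taking log2 is the 20th percentile over all signals, so that differences of dim genes are understated. The filter kept probe sets with a mean of 110.03 or more, the median over probe sets. limma 3.58.1 in R 4.3.3 was run with an intensity trend, genotype and litter as terms and Benjamini-Hochberg adjustment at 0.05. The brightest probe set stands for a gene.

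The replicate numbers pair the samples because a number marks a litter. Over probe sets, the deviations of the 2 arrays of a litter from their genotype mean had a correlation of 0.0251 in litter 1, 0.434 in litter 2, 0.376 in litter 3 and 0.379 in litter 4. The highest correlation of a control array with a transgenic array of another litter was 0.0630, 0.0133, 0.0303 and 0.00416 for litters 1 to 4. In litter 1 the pair was thus no more alike than arrays of different litters. Whether a sample pools embryos is not stated, so the unit is the sample and not the embryo. With litter in the model, the p-values rest on how the transgenic minus control differences vary among these litters, moderated over probe sets.

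The members, lists and tests were chosen with earlier results of these data known. The named pathway genes are those with the smallest p in each list: up to 3 for genotype, with 4 same-signed litter differences, and up to 2 for litter. The fits were tested on simulated data. Alternatives were no litter block, other offsets, filters, normalizations and moderation, array weights, other use of several probe sets, and leaving out each litter.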

Additional observations from a re-analysis of the deposited data

Results flagged for a closer look

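Among 40 groups of 4 samples (20 probe sets in each genotype) 2 held a sample far from the others, near the share that chance gives (about 5%). The second probe set of Gli2 was at 537 in the control sample of litter 4, with the nearest control sample at 830.1. Its transgenic sample of litter 4 was low too, at 575, with the other transgenic samples between 804 and 874. The dimmest probe set of Smo was at 23.3 in the control sample of litter 4, with the nearest at 6.71. It lies below the filter.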

How the results depend on the processing

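Over 14 alternatives, 0 probe sets were called between genotypes (limma, smallest adjusted p 0.590), with 246 to 1769 at an unadjusted p under 0.05. None of the 9 genes was called in these or with the mean of the probe sets of a gene; Ihh and Disp1 were not tested under the stricter filter. Without the litter block the counts were 0 and 246. Leaving out single arrays equals leaving out the litter in a paired fit. Of 133 values of the 9 genes, 6 had the opposite sign: Ptch1 at 0.0046 log2 with median centring and 0.080 with the mean of its probe sets, and 4 when 1 litter was left out. Over such fits Ptch1 ranged from -0.0701 to 0.0104, Gli1 from -0.0245 to 0.228, Gli2 from -0.137 to 0.0189, Hhip from -0.129 to 0.0120, Smo from 0.0479 (without litter 1) to 0.171, Pth1r from -0.0663 to -0.00620 and Disp1 from 0.128 to 0.297.

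Between litters 995 probe sets passed without the filter, where more were tested, with 2 of the 9 genes. By limma without the intensity trend the counts were 0 and 0 (4915 probe sets at an unadjusted p under 0.05). Leaving out 1 litter gave 562 (without litter 2) to 3047 (without litter 1) probe sets and 1 to 4 genes. Gli3 was added by the stricter filter (adjusted p = 0.0499852), where Ihh was not tested, median centring (0.0364) and the mean of its probe sets (0.0457). Of 115 litter values, 98 kept their side of the threshold. The cause of these changes was not tested.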
